A study of Mus musculus with 3 samples.

Results

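The cells described here are capillary endothelial cells from mouse gastrocnemius muscle in which no transcript of 5 early-response genes (Atf3, Egr1, Fosb, Socs3 and Nr4a1) was counted. They were selected on their transcript counts, in unique molecular identifiers (UMIs), which tag single captured RNA molecules. A droplet barcode, treated here as 1 cell, had to hold at least 1000 UMIs over at least 300 genes with at most 10% mitochondrial UMIs. It then needed at least 10 UMIs over 7 capillary markers (Gpihbp1, Rgcc, Cd36, Fabp4, Car4, Cd300lg and Timp4), none over 7 artery markers, at most 1 over 6 vein markers and none over the 5 early-response genes. Of 8105 cells that passed the depth filters, among 11715 barcodes in all, 706 met every criterion, or 8.71% (95% exact binomial interval 8.11 to 9.35, counting error only).

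All cells came from wild-type C57BL/6N mice and had been sorted, after warm enzymatic digestion of the muscle, as CD31+ CD45- SYTOX blue- cells (endothelial surface protein present, leukocyte protein absent, dead-cell dye excluded). The study set mice that ran voluntarily on a wheel for 14 days, housed singly, against sedentary mice housed singly without a wheel. A library labelled as having no treatment, whose housing is not given, completes the series. Each of these 3 groups is 1 library, and the age and number of animals behind each are not given in the sources used here, so nothing below has a replicate. No significance test was therefore made, and every interval is a 95% exact interval for counting error only.

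Early-response genes are transcribed within minutes of a stimulus from promoters that are already accessible, and many encode transcription factors of the AP-1 (Fos and Jun), Egr and Nr4a families. Capillary cells of skeletal muscle line the vessels where oxygen and fatty acids pass to the fibres, and Gpihbp1, Cd36 and Fabp4 belong to their fatty acid uptake route. Warm enzymatic digestion is known to switch on early-response genes in many tissues, and exercise and inflammatory signals can do so too. Of the rule's genes, Atf3 and Fosb encode partners in AP-1-type dimers, Egr1 a zinc-finger factor, Nr4a1 an orphan nuclear receptor and Socs3 an inhibitor of cytokine signalling through JAK and STAT proteins.

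The promoters of 4 of these genes are shown because they are the genes in which the cells were required to show no UMI. Each runs from 250 bases before to 50 bases after the start of the gene in RefSeq on GRCm38.p6, written 5′ to 3′ on the gene's strand. They lie at chr1:191183284-191183583 (Atf3, minus strand), chr7:19309996-19310295 (Fosb, minus strand), chr15:101266596-101266895 (Nr4a1, plus strand) and chr11:117969317-117969616 (Socs3, minus strand). Capitals mark TGACG or its reverse complement, the half-site of the cyclic-AMP response element that ATF and CREB factors recognise, and TTCNNNGAA, the element known for STAT binding.
Atf3: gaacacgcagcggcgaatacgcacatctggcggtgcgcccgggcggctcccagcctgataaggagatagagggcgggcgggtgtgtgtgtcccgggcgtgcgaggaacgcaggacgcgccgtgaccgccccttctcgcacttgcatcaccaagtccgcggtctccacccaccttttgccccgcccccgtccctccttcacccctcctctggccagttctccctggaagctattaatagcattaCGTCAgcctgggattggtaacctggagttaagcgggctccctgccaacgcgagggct
Fosb: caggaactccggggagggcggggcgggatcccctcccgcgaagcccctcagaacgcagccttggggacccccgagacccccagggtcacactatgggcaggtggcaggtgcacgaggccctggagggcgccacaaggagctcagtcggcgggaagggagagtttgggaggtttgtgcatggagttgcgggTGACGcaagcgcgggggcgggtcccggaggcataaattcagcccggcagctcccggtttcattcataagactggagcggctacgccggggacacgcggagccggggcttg
Nr4a1: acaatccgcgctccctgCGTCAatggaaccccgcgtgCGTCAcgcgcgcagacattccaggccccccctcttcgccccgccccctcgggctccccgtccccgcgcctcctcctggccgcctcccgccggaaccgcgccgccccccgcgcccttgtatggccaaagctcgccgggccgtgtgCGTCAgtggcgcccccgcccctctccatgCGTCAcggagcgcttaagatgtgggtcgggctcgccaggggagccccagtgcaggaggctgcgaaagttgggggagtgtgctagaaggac
Socs3: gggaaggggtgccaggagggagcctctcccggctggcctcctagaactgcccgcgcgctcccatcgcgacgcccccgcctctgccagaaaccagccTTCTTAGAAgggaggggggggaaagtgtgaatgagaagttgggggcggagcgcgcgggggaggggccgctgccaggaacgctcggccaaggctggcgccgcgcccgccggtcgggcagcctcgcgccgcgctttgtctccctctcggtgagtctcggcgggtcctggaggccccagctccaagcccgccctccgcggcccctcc
Both strands were searched, and the motifs to mark were chosen after the sequences had been read. The half-site occurred once in the Atf3 and in the Fosb promoter and 4 times in that of Nr4a1. Of 32851 mouse promoters of this length, 20.8% held the half-site at least 1 time and 0.231% held it at least 4 times. The whole element TGACGTCA, of which the half-site is a part, was in none of the 4 windows and in 1.79% of all promoters. The STAT element was found only in the Socs3 window, and in 8.30% of all promoters. These matches describe letters, not binding.

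The 706 cells held general endothelial transcripts and few of other cell types, while their capillary markers were fixed by the rule. All 10 general endothelial markers (Pecam1, Cdh5, Kdr and others) were detected in every library, at a summed 8675 CPM (untreated), 9682 CPM (sedentary) and 11237 CPM (running). CPM is the number of UMIs of a gene or list per 1000000 UMIs of the same class of cells in a library. Leukocyte markers summed to 0, 2.62 and 4.93 CPM, with Ptprc at 0 throughout, and satellite cell markers were at 0 in all 3. Fibroblast markers came to 6.03, 5.25 and 0 CPM. Mural cell markers, mostly Rgs5, summed to 233, 163 and 108, and lymphatic markers, mostly Flt4 and Ccl21a with Prox1 at 0, to 44.2, 70.8 and 158. Erythrocyte markers, the haemoglobin genes and Alas2, stood at 346, 11516 and 729 CPM. One sedentary cell held 3962 of the 4390 erythrocyte UMIs of its group, 83.4% of its own total, and without it the sedentary level was 1137. Haemoglobin genes are near-identical copies, so reads may be split among them.

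The libraries gave 3549 (untreated), 2216 (sedentary) and 2340 (running) cells past the depth filters, with median depths of 1763, 1749.5 and 1902 UMIs. Barcode sequences shared between any 2 libraries numbered 20 to 32, and none of the 706 cells was among them. The untreated library stood apart from the other libraries in many genes, as described below, and its batch and its group cannot be told apart.

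Cells without early-response transcripts were a smaller share of the running library than of the others. They made up 334 cells (9.41% of those past the depth filters, 8.47 to 10.4) in the untreated, 238 cells (10.7%, 9.48 to 12.1) in the sedentary and 134 cells (5.73%, 4.82 to 6.75) in the running library. Counted over capillary cells alone, those meeting all vessel criteria, the shares were 22.4% of 1494 (20.3 to 24.6), 27.6% of 862 (24.6 to 30.7) and 13.0% of 1030 (11.01 to 15.2). The running interval overlapped neither of the others. A count of 0 depends on depth, and these cells were shallower, with median UMIs of 1379.5, 1487 and 1362.5 against 1636, 1616 and 1715.5 in the capillary cells that held early-response UMIs. With the 5 genes read after every cell had been thinned to 1000 UMIs, the shares were 27.6% (25.3 to 29.9), 34.2% (31.1 to 37.5) and 20% (17.6 to 22.6), in the same order. With 1 library per group, running and library cannot be told apart.

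**Figure D1:**
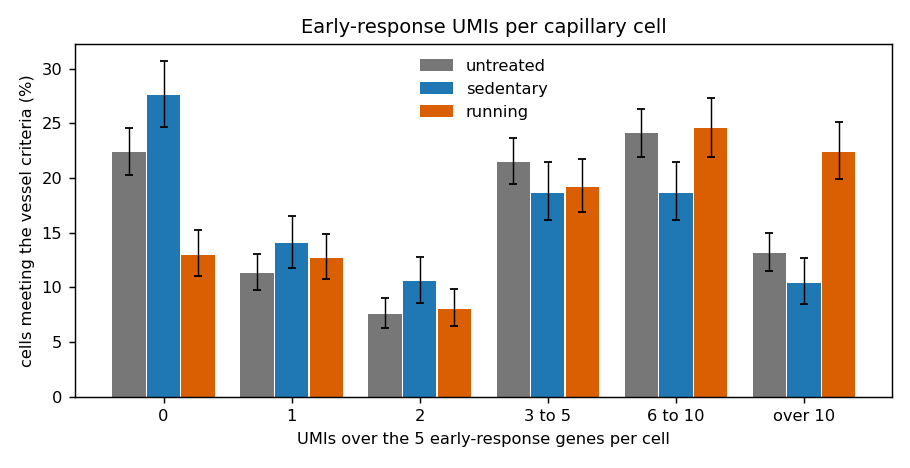
Share of the capillary cells of each library (y axis, %) by the number of UMIs they held over the 5 early-response genes (x axis). Bars are single libraries and whiskers 95% exact binomial intervals. At 0 UMIs the running bar stands at 13.0%, against 22.4% and 27.6%, and above 10 UMIs it stands at 22.4%, against 13.2% and 10.4%.

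Many cells lay close to the early-response limit of the rule, and few to its capillary-marker limit. Capillary cells with exactly 1 early-response UMI numbered 169 (untreated), 121 (sedentary) and 131 (running), and those with over 10 made up 13.2%, 10.4% and 22.4%. At the artery and vein limits, 87, 105 and 62 further cells were kept out by a single artery-marker UMI, and 8, 10 and 4 by a second vein-marker UMI. Of the selected cells, 2, 0 and 1 held exactly 10 capillary-marker UMIs, the lowest number allowed. Their median number of capillary-marker UMIs was 41, 40.5 and 39.5. The cells just inside and just outside the early-response limit differed in AP-1 level, which was 2104 against 5048 CPM in the untreated, 1718 against 2386 in the sedentary and 1686 against 2543 in the running library. Since the rule set this limit, these values are a description.

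AP-1 genes outside the rule followed the rule's own genes. The summed level of the 11 AP-1 and partner genes increased at each step from 0 to over 10 early-response UMIs, from 2104 to 15752 CPM in the untreated, from 1718 to 15906 in the sedentary and from 1686 to 17158 in the running library. Other rapid-response genes (Klf, Ier, Btg2 and 32 in all) went from 4983 to 15875, from 4003 to 15227 and from 3933 to 15103. The 7 capillary markers were lower at the far end of the range, at 29452, 27232 and 28402 CPM in cells with 0 early-response UMIs and 18538, 14718 and 16218 in those with over 10. In the untreated library they did not fall at each step, at 18581 CPM with 3 to 5 UMIs and 19523 with 6 to 10. Levels here are shares of a total to which the early-response genes also add. Heat shock chaperones, which refold proteins after heat or toxic stress, differed less along the range. They went from 3215 to 4382 in the untreated, from 3869 to 3719 in the sedentary and from 3243 to 3690 in the running library. Median depth also differed along this range, from 1362.5 to 1487 UMIs at 0 to 1984 to 2050 above 10.

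**Figure D2:**
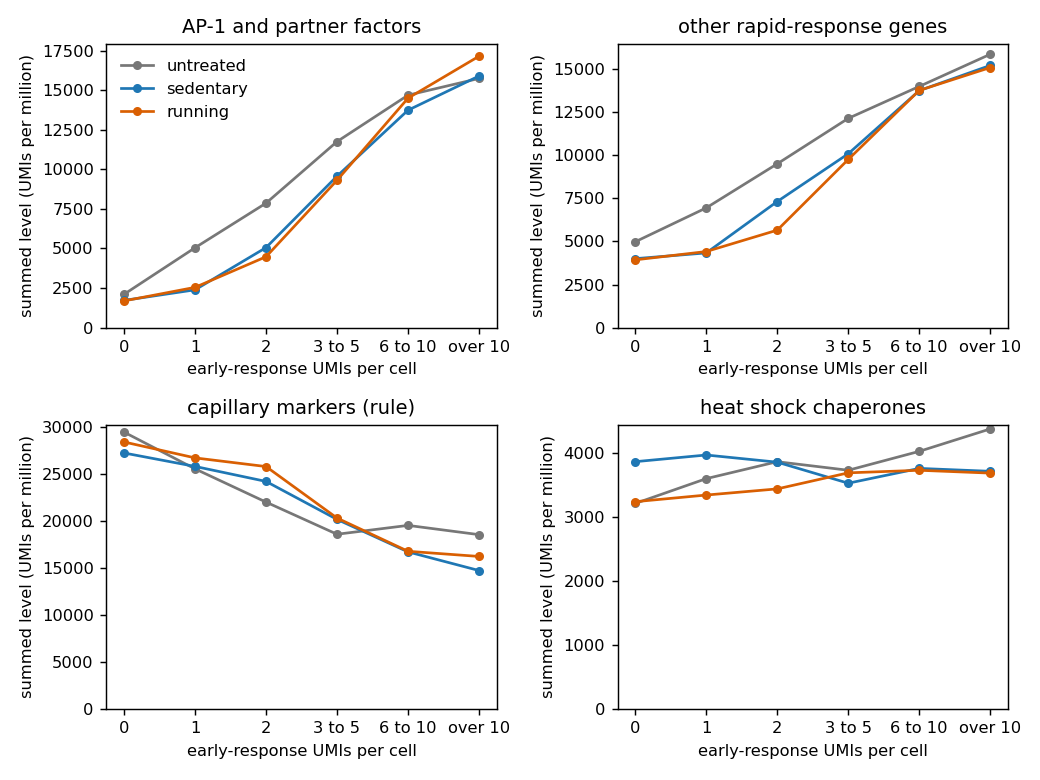
Summed level of 4 gene lists (y axes, CPM, each from 0) in capillary cells grouped by their early-response UMIs (x axes), with 1 line per library. AP-1 and other rapid-response genes increase from left to right (AP-1 in the running library from 1686 to 17158), and capillary markers end lower than they start (running, 28402 to 16218). Heat shock chaperones lie between 3215 and 4382, which are the start and the end of the untreated line.

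The nearest comparison for these cells is with the other 2680 capillary cells of the same libraries, which met the same vessel criteria but held at least 1 early-response UMI. A gene is called higher or lower here when its level differed at least 1.5-fold in the same direction in all 3 libraries, among 2484 genes with at least 100 UMIs in each. Of these, 64 were called lower (2.58%) and 16 higher (0.644%). The median gene differed by 0.03 (untreated), 0.01 (sedentary) and 0.04 (running) on the log2 scale. Since the rule sorted the cells on early-response counts, genes that accompany those counts had to move with them, and the values that follow are a description. Within cells of 1000 to 2000 UMIs on both sides, 47 of the 64 were again called lower and 14 no longer had enough UMIs, while 7 of the 16 were again called higher and 4 lacked UMIs. Called from the sedentary and running libraries alone, 100 genes were lower and 35 higher.

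The 4 main AP-1 transcripts were all lower. Fos (chr12:85473890-85477273 on GRCm38), the prototype early-response gene, stood at 420, 275 and 241 CPM in the untreated, sedentary and running cells, against 3475, 1838 and 2336 in capillary cells with early-response UMIs. Its log2 ratio was -3.05 (-3.25 to -2.85), -2.73 (-3.04 to -2.46) and -3.27 (-3.71 to -2.87). Junb, a Jun-family partner of Fos, showed 313, 328 and 394 CPM against 2357, 2128 and 2812. Jun itself stood at 846, 409 and 439 against 4234, 2878 and 3439. Jund, the third family member, stood at 396, 501 and 429 against 2063, 2760 and 2985. All 4 genes thus still gave UMIs in cells with none of the rule's transcripts, at a lower level in each library. How many of these UMIs are free RNA in the droplets was not tested. Erythrocyte-marker UMIs, for comparison, were found in 4.79% of the untreated, 70.6% of the sedentary and 65.7% of the running cells, and in 3.36%, 72.9% and 64.1% of capillary cells with early-response UMIs. Of 5 measured genes of the AP-1 list, these 4 were called lower, and Mafg, a small Maf partner, was not, with log2 ratios of -0.56, 0.44 and 0.26. The list's summed log2 ratio was -2.55, -2.52 and -2.81.

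Other rapid-response genes were lower too, by smaller factors, and 11 of the 15 measured were called. Zfp36, which marks inflammatory messenger RNAs for decay, stood at 185, 136 and 98.6 CPM against 1084, 724 and 828. Klf4, a Krüppel-like factor of the flow response, stood at 376, 296 and 237 against 1565, 1413 and 1299. Its relative Klf2 showed 1007, 813 and 591 against 2225, 1850 and 1867, and Klf6 786, 373 and 345 against 1375, 811 and 904. Btg2, an antiproliferative early gene, was at 476, 325 and 330 against 1551, 1343 and 1515. The remaining called genes were Cyr61, Gadd45g, Rhob, Ier2, Ier3 and Ier5. The 4 measured genes that were not called, Zfp36l1, Plk2, Crem and Klf10, had log2 ratios between -0.74 and 0.25. The list's median was -1.18, -1.35 and -1.39.

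Brakes on MAP kinase signalling were lower alongside, with 3 of 4 measured members called. Dusp1, a phosphatase that switches off MAP kinases, stood at 530.5, 449 and 449 CPM against 1164, 865 and 880. Spry1, an inhibitor of receptor tyrosine kinase signalling, stood at 135, 68.2 and 78.9 against 364, 239 and 238. Dusp6, the phosphatase specific for ERK, had log2 ratios of -0.83, -1.01 and -0.80.

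NF-kappaB and STAT3 targets were lower by smaller factors than these lists. Their summed log2 ratio was -0.57 (-0.67 to -0.475), -0.67 (-0.795 to -0.54) and -0.71 (-0.88 to -0.55) in the untreated, sedentary and running libraries. Of 9 measured members, 1 was called lower, beside 2.58% over all genes measured. That member was Nfkbiz (chr16:55811375-55838899), an inducible regulator of inflammatory genes, at 20.1, 7.87 and 19.7 CPM against 152, 141 and 203. Its levels here rest on 10, 3 and 4 UMIs, and its log2 ratios were -2.90 (-4.00 to -2.02), -4.05 (-6.45 to -2.59) and -3.33 (-5.25 to -1.99). Nfkbia, the NF-kappaB inhibitor, stood at 796, 454 and 325 against 1037, 758 and 648, which is under the 1.5-fold limit in the untreated library. Icam1, the leukocyte adhesion molecule, had log2 ratios of -0.50, -0.81 and -1.84, and Stat3 of -0.39, 0.15 and 0.04.

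Outside the early-response lists, the heat shock, ATF4 and cell cycle lists gave 1 or 2 lower calls each, beside 2.58% lower over all genes measured. Of 8 measured heat shock genes, 1 was called lower, Dnajb1, a co-chaperone of the Hsp70 system, at 121, 57.7 and 88.7 CPM against 302, 156 and 202. Hspa8, the constitutive Hsp70, stood at 735, 866 and 843 against 938, 953 and 847. The heat shock list's summed log2 ratio was -0.30 (-0.38 to -0.23), 0.04 (-0.04 to 0.13) and -0.17 (-0.28 to -0.05) in the untreated, sedentary and running libraries. Of 5 measured genes of the ATF4 amino acid response, 2 were called lower, and the list's summed ratio was -0.43 (-0.56 to -0.30), -0.43 (-0.61 to -0.26) and -0.63 (-0.86 to -0.40). Atf4, a stress-induced factor, was at 114, 181 and 187 against 301, 306 and 330, and Slc38a2, an amino acid transporter under its control, at 133, 136 and 143 against 286, 285 and 297. Cdkn1a, the p21 cell cycle inhibitor, was at 325, 171 and 173 against 989.5, 1021 and 1178, and was the single called gene among 6 measured cell cycle genes.

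Few endothelial identity genes reached the called margin. Of 18 measured endothelial transcription factors, Sox17, an arterial-type factor, was the only one called, at 191, 191 and 177 CPM against 341, 378 and 344. Of 9 Notch pathway genes, Hes1, a Notch target that other stimuli also induce, was the only one called, at 358, 496 and 414 against 1047, 990 and 1056. With Hes1 included, the Notch list's summed log2 ratio was -0.54 (-0.66 to -0.43), -0.36 (-0.49 to -0.24) and -0.445 (-0.61 to -0.28). Its median was -0.09, -0.14 and 0.02. None of the 8 measured VEGF and angiopoietin genes was called, and their median log2 ratios were -0.04, 0.11 and 0.09. Kdr, the main VEGF receptor, stood at 784, 952 and 1099 against 823, 879 and 1017. Junction genes (0 of 11 called), basement membrane and integrin genes (0 of 13), caveolae and transport genes (0 of 12) and nuclear respiratory chain genes (0 of 33) gave no call either. Over all genes measured, 2.58% were called lower and 0.644% higher, so lists this small could hold no call at that share. Summed log2 ratios were 0.06, 0.095 and 0.32 for junction genes and 0.085, 0.22 and 0.27 for basement membrane and integrin genes. Caveolae and transport genes summed to 0.25 (0.22 to 0.29), 0.32 (0.28 to 0.36) and 0.43 (0.38 to 0.48). The respiratory chain median was 0.31, 0.28 and 0.22, above the median gene in each library.

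Higher levels in these cells involved few genes and smaller factors. Ly6c1 (chr15:75044018-75048830), a surface protein common on capillary endothelium, stood at 3235, 4373 and 3258 CPM against 1658, 2604 and 1838. Its log2 ratio was 0.96 (0.88 to 1.05), 0.75 (0.66 to 0.83) and 0.82 (0.70 to 0.95). Psmb2, a proteasome subunit, stood at 161, 265 and 251 against 78.6, 147 and 131. Psmb9, the immunoproteasome subunit of antigen processing, stood at 143, 184 and 197 against 89.7, 92.3 and 114. Prdx1, a peroxidase that removes hydrogen peroxide, was at 490, 682 and 744 against 273, 444 and 430. Sult1a1, a sulfotransferase, showed 528, 598 and 458 against 295, 374 and 253. Anxa5, a phospholipid-binding annexin, Tspo, a protein of the outer mitochondrial membrane, and Mfge8, a secreted bridge to dying cells, were also among the 12 with the widest margins. Vbp1 was called on its values, yet its running interval (-0.04 to 1.29) includes no difference. B2m, the light chain of MHC class I, had ratios of 0.48, 0.53 and 0.67 and was not called. Bst2, an interferon-stimulated surface protein, had 0.68, 0.56 and 0.67 and was not called either. Of 21 interferon-stimulated genes measured, Irf1 and Ifit1 were called lower and none higher, beside 2.58% and 0.644% over all genes measured. Summed, the interferon-stimulated list was higher in each library, at log2 ratios of 0.29 (0.24 to 0.34), 0.31 (0.26 to 0.36) and 0.215 (0.15 to 0.28). Its median gene stood at 0.02, 0.04 and -0.01.

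**Figure D3:**
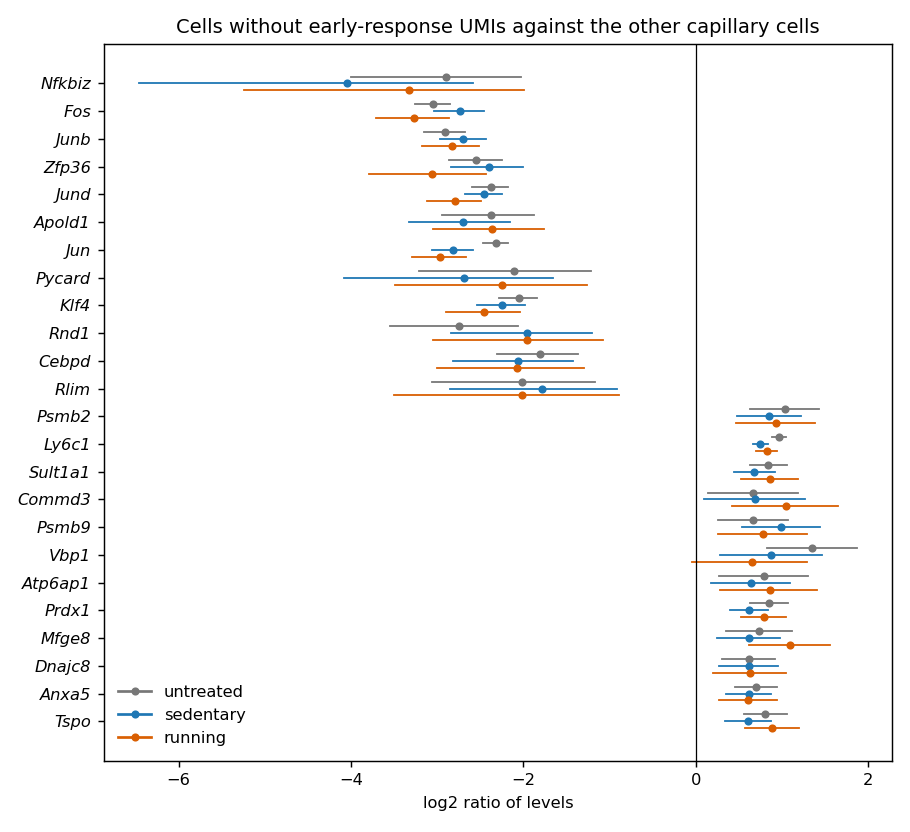
Log2 ratio of the level in capillary cells without early-response UMIs to that in capillary cells with them (x axis) for the 12 genes lower and the 12 higher by the widest margin in all 3 libraries. Points are libraries and lines 95% counting intervals. The lower genes reach -4.05 (Nfkbiz, sedentary), while no higher gene passes 1.34 (Vbp1, untreated).

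Set against all 7399 other cells past the depth filters, which add arterial, venous and mixed cells, more genes were called. Of 5704 genes measured, 185 were called lower (3.24%) and 56 higher (0.982%). The other cells had median depths of 1811, 1791 and 1943 UMIs. Within 1000 to 2000 UMIs, 72 of the 185 were again called lower and 94 lacked UMIs, and 11 of the 56 were again called higher with 25 lacking UMIs. From the sedentary and running libraries alone, 294 genes were called lower and 116 higher. Vessel choice and early-response choice both enter this contrast.

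Besides Fos, Junb and Nfkbiz, the widest margins on the lower side were mostly in genes outside the rapid-response lists. Plvap, the diaphragm protein of fenestrated and venous endothelium, stood at 28.1, 63.0 and 49.3 CPM against 314, 355 and 303. Mgp, a calcification inhibitor of arteries, stood at 16.1, 7.87 and 9.86 against 203, 54.2 and 83.6. Fn1, fibronectin, was at 18.1, 10.5 and 4.93 against 92.8, 87.0 and 79.7. Col8a1, a short-chain collagen of large vessels, was at 10.1, 2.62 and 4.93 against 240, 77.2 and 74.1, from 5, 1 and 1 UMIs. Edn1, the vasoconstrictor endothelin precursor, was at 123, 65.6 and 34.5 against 454, 277 and 148. Ace, the angiotensin-converting enzyme, stood at 42.2, 36.7 and 49.3 against 128, 121 and 105. Slco2a1, a prostaglandin transporter, Vegfc, the lymphatic growth factor, and Jag1, a Notch ligand, were also called lower. Edn1 did not differ by the called margin from the capillary cells with early-response UMIs, where it stood at 138, 62.1 and 26.7.

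Some lower genes were near the limit of counting. Mt1, a metal-binding metallothionein, had 2, 5 and 2 UMIs in these cells, or 4.02, 13.1 and 9.86 CPM against 74.9, 80.7 and 85.2. Hspa1a, the inducible Hsp70, had 5, 2 and 0 UMIs. In the running library it was at least 3.76-fold lower, taking 3 UMIs as the floor per library. Gkn3, an arterial marker, had 0, 2 and 0 UMIs and was at least 6.83-fold lower in the untreated and at least 2.11-fold lower in the running library. Dusp26, with 1, 0 and 1 UMIs, was at least 4.01-fold lower in the sedentary library, and its running interval on the log2 scale (-7.69 to 0.12) included 0.

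Among the genes named as higher, Aqp1 had the most UMIs. Aqp1 (chr6:55336432-55348555), the endothelial water channel, stood at 6129, 9507 and 8620 CPM against 3127, 4845 and 4041, with log2 ratios of 0.97 (0.92 to 1.03), 0.97 (0.92 to 1.02) and 1.09 (1.02 to 1.16). Cav2, a caveolin, was at 699, 1249 and 1272 against 458, 782 and 702. These were the 2 higher calls among 13 caveolae and transport genes, of which Plvap, Slco2a1 and Ehd4 were lower. Aplnr, the apelin receptor, was at 311, 595 and 591 against 197, 355 and 339. Jam3, a junctional adhesion molecule, was at 119, 186 and 325 against 58.0, 99.5 and 124. Adh1, an alcohol dehydrogenase that also acts on retinol, showed 147, 97.1 and 59.1 against 51.9, 50.9 and 27.2. Cxcl9, an interferon-induced chemokine, showed 68.3, 70.8 and 118 against 32.4, 40.4 and 45.9, from 34, 27 and 24 UMIs.

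Fatty acid genes outside the rule gave 1 call. Of 18 measured, none was called higher and Slc27a3, an acyl-CoA synthetase, was called lower, beside 0.982% and 3.24% over all genes measured. The list's summed log2 ratio was 0.66 (0.60 to 0.72), 0.31 (0.23 to 0.40) and 0.485 (0.37 to 0.59). Against capillary cells with early-response UMIs it was 0.345 (0.28 to 0.41), 0.24 (0.15 to 0.34) and 0.36 (0.24 to 0.47). The list's median log2 ratio against all other cells was 0.42, 0.16 and 0.38, where that over all genes measured was 0.03, 0.01 and 0.04. Lpl, the lipase that Gpihbp1 anchors at the capillary wall, stood at 874, 590 and 414 CPM against 457, 374 and 289. Fabp5, a fatty acid binding protein, stood at 2198, 1207 and 1410 against 1235, 888 and 849. Pparg, the lipid-sensing nuclear receptor, was not higher, at 56.3, 44.6 and 44.4 against 67.3, 66.7 and 59.8.

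**Figure D4:**
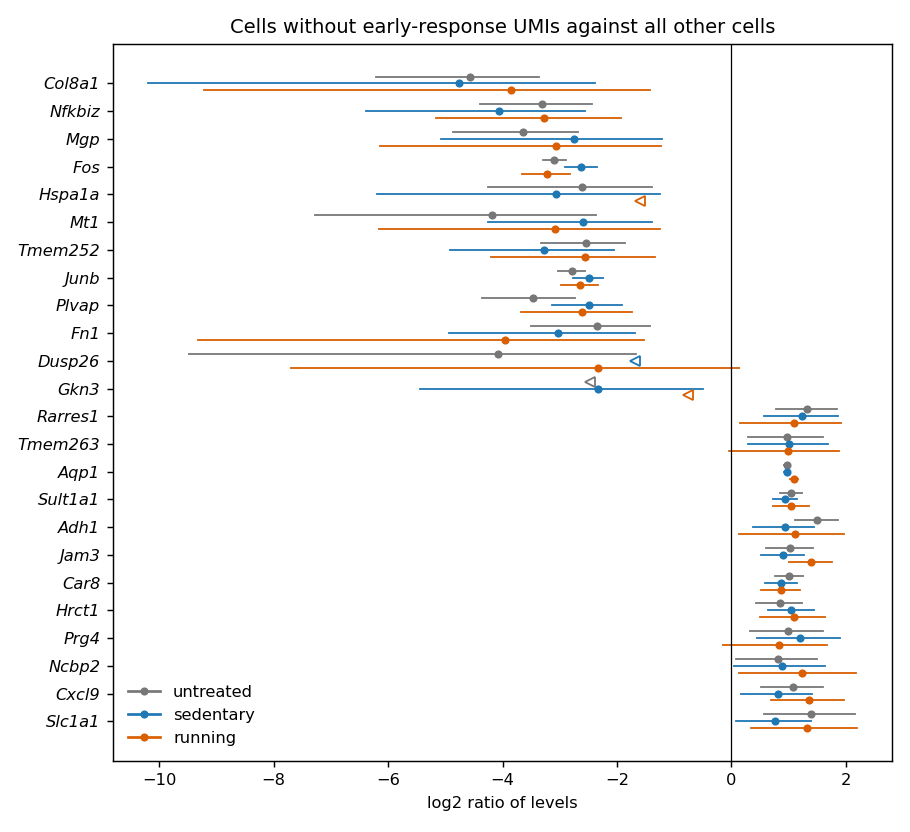
Log2 ratio of the level in capillary cells without early-response UMIs to that in all other cells (x axis) for the 12 genes lower and the 12 higher by the widest margin in all 3 libraries. Points are libraries, lines 95% counting intervals, and open triangles the upper interval bound where these cells held 0 UMIs. Aqp1 has the narrowest intervals (0.92 to 1.03 in the untreated library), while the intervals of Col8a1 and Dusp26 span several log2 units.

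Exercise was addressed by setting the 134 running against the 238 sedentary cells. Of 954 genes with at least 100 UMIs over both, 32 were called lower in running cells (3.35%) and 17 higher (1.78%), here at 1.5-fold in the single pair of libraries. Of these, 12 lower and 6 higher were called again within cells of 1000 to 2000 UMIs, where 18 and 8 lacked UMIs. Only genes whose ratio of running to untreated cells had the same sign, whatever its size, are named. The 32 include 4 erythrocyte markers, whose summed log2 ratio was -3.98 (-4.23 to -3.74) with the haemoglobin-rich sedentary cell described above and -0.64 (-0.92 to -0.37) without it. Leaving that cell out moved the log2 ratio of no named gene by more than 0.018.

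Junction genes were higher in running cells in 2 of 9 measured. Cldn5 (chr16:18776847-18778262), the principal tight junction claudin of endothelium, stood at 1051 (untreated), 1167 (sedentary) and 2070 (running) CPM, a log2 ratio of running to sedentary of 0.82 (0.63 to 1.02). In capillary cells with early-response UMIs the same ratio was 0.36 (0.25 to 0.46). Jam3 stood at 119, 186 and 325 in these cells, a ratio of 0.80 (0.30 to 1.31), beside 0.35 (0.05 to 0.65) in cells with early-response UMIs. The sprouting-associated genes Trp53i11 and Fscn1 were higher as well, at 0.79 (0.41 to 1.18) and 0.63 (0.23 to 1.04), among 4 measured of that list. Trp53i11 was as far apart in cells with early-response UMIs, at 0.86 (0.69 to 1.04). Mef2c, a transcription factor of muscle and endothelium, had a ratio of 0.77 (0.35 to 1.20), beside 0.19 (0.01 to 0.36). Iigp1, an interferon-inducible GTPase, had 0.62 (0.20 to 1.03), beside 0.59 (0.41 to 0.77). Of 10 interferon-stimulated genes measured, 1 was called higher and 1 lower. That list's summed ratio was -0.20 (-0.28 to -0.13), beside -0.11 (-0.145 to -0.07) in cells with early-response UMIs.

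Lower levels in running cells were found in genes of several roles. Hspb1, a small heat shock protein, stood at 778, 1343 and 744 CPM in the untreated, sedentary and running cells, a ratio of running to sedentary of -0.85 (-1.12 to -0.59). Its running level was close to the untreated level, and the sedentary level stood apart. Isg15, the ubiquitin-like interferon-stimulated protein, stood at 187, 312 and 138, a ratio of -1.17 (-1.83 to -0.57). Epas1, the endothelial hypoxia-inducible factor HIF-2 alpha, stood at 824, 753 and 463, a ratio of -0.70 (-1.05 to -0.36), beside -0.50 (-0.64 to -0.37) in cells with early-response UMIs. Ramp2, the adrenomedullin receptor partner, Id3, a BMP target, and Cxcl12, a chemokine, had ratios of -0.48, -0.42 and -0.37, short of the called margin. Whether these ratios differ between the 2 kinds of capillary cell was not tested.

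The AP-1 transcripts that these cells did hold were compared as well. The cells of both libraries had been selected to hold no UMI of the rule's 5 early-response genes, and the comparison cells to hold at least 1, so these ratios are conditioned on that choice. The summed AP-1 ratio of running to sedentary was -0.03 (-0.22 to 0.16), while in capillary cells with early-response UMIs it was 0.26 (0.23 to 0.30). Other rapid-response genes summed to -0.03 (-0.15 to 0.10), beside 0.12 (0.09 to 0.15). None of 3 fatty acid genes, 10 caveolae and transport genes or 28 respiratory chain genes measured was called. Over all genes measured in this pair, 3.35% were called lower and 1.78% higher, so lists this small could hold no call at that share. The summed ratios of these lists were 0.09 (-0.05 to 0.22), -0.07 (-0.12 to -0.01) and -0.06 (-0.12 to 0.01). MHC class I genes summed to 0.25 (0.16 to 0.33), beside 0.24 (0.20 to 0.29), and B2m, at 3854 against 3085 CPM, had a ratio of 0.32 (0.19 to 0.45).

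**Figure D5:**
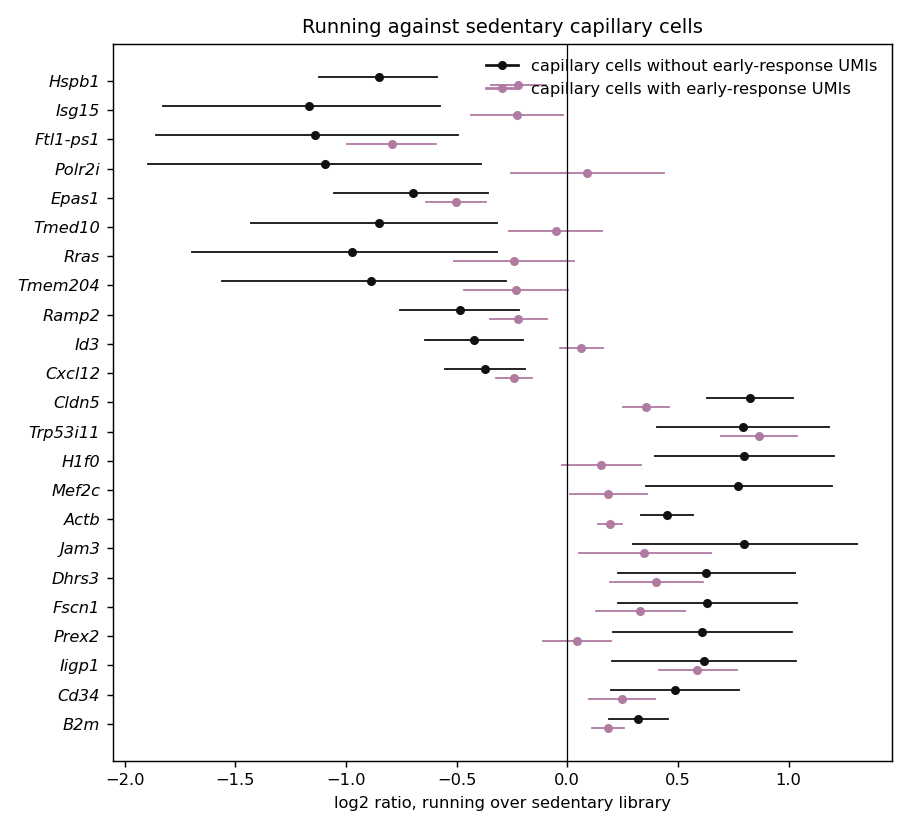
Log2 ratio of the running to the sedentary library (x axis) for genes chosen by the naming rule, in capillary cells without early-response UMIs (black) and with them (purple), with 95% counting intervals. Black lines are longer because these cells hold fewer UMIs. Among the black points Cldn5 lies farthest above 0 (0.82).

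The untreated cells differed from the sedentary cells in more genes than the running cells did. Of 1501 genes measured, 160 were called higher (10.7%) and 136 lower (9.06%), against 17 and 32 of 954 above. Trim25, a ubiquitin ligase of antiviral signalling, stood at 540.5 CPM (untreated), 76.1 CPM (sedentary) and 108 CPM (running). Ddit4, a stress-induced inhibitor of mTORC1, stood at 514, 110 and 73.9, and Unc5b, a netrin receptor of sprouting endothelium, at 336, 76.1 and 123. Each of these 3 genes differed in the same direction in capillary cells with early-response UMIs, where the log2 ratios were 2.55 for Trim25, 1.64 for Ddit4 and 2.17 for Unc5b. Genes lower in untreated cells are not named here. Of the interferon-stimulated genes, 6 of 11 measured were called lower and none higher, with a summed log2 ratio of -0.44 (-0.50 to -0.38). MHC class I genes had 4 of 9 called lower and none higher, and summed to -0.56 (-0.64 to -0.485).

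Among themselves the cells varied beyond sampling in several transcripts. For each gene with at least 100 UMIs in every library, 299 in all, the spread of its counts over cells was divided by what sampling at each cell's depth alone would give. The median of this ratio was 1.20, 1.20 and 1.19, and 41 genes reached 1.5 in all 3 libraries. At the same relative spread this ratio is larger for more abundant genes, so its order is not an order of relative unevenness. Malat1, a nuclear non-coding RNA, had the largest ratio of the genes measured at 14.3, 10.4 and 12.9. Fabp4, one of the rule's capillary markers, followed at 8.12, 7.64 and 6.36, Actb, the cytoskeletal actin, at 5.39, 5.20 and 11.3, and Aqp1 at 4.42, 5.48 and 5.14. Cxcl12 stood at 3.65, 2.50 and 3.07, Vim, the intermediate filament vimentin, at 2.19, 4.22 and 2.83, and Cldn5 at 2.10, 2.67 and 2.87. The stem cell antigen gene Ly6a and the BMP target Id3 stood above 2 in each library.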

How the data were processed

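The single-cell libraries of sorted gastrocnemius endothelial cells, 3 in all, held 1 group each. The authors deposited UMI counts per gene and barcode, made with Cell Ranger 2.0.2 on GRCm38.p5 per the submitters' processing notes. Filters other than those given with the rule were not applied, and doublets were not removed. The cells and all gene lists were chosen with earlier results of these data known.

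For every library, UMIs were added up by class of cell and divided by that class's total (CPM). Log2 ratios used 0.5 added counts, with exact 95% binomial intervals for counting error only. Rule genes were not tested. Genes called had at least 100 UMIs and a 1.5-fold difference. Genes named are the 12 per direction whose smallest absolute log2 ratio over the libraries was largest (for running, the interval bound nearest 0 and the same sign against the untreated library; 5 for the untreated contrast), leaving out mitochondrial, ribosomal and other cell types' marker genes, and list members. Software was Python 3.11.15, numpy 2.4.6, scipy 1.17.1 and pandas 2.3.3. The ratio script was tested on simulated data. Gene positions are GENCODE M21, promoters RefSeq. Counting settings, depth windows and rule limits were varied. A few genes that the naming rule selects are not reported here.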

Additional observations from a re-analysis of the deposited data

Results flagged for a closer look

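A gene or marker list is given here when these cells stood at least 1.5-fold above the comparison cells in 1 library and at least 1.5-fold below them in another, with both counting intervals off 0. With 1 library per group the difference between libraries was not tested, and no allowance was made for the 5704 and 2484 genes compared.

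Against all other cells, Uhmk1 had log2 ratios of 0.99 in the running and -1.997 in the sedentary library, and Pgd 0.87 (sedentary) and -2.13 in the untreated library. Running cells were above and sedentary cells below the comparison cells for Ino80d (0.86 and -0.93), Tmem147 (0.82 and -0.61), Rtcb (0.72 and -0.94) and Hnrnpa0 (0.72 and -0.74). Myl9 stood at 0.85 in the sedentary and -1.30 in the untreated library, Dguok at 0.85 in the running and -0.74 in the untreated library, and Rbm5 at 0.73 (sedentary) and -1.05 (running). Untreated cells were above and sedentary cells below for Idh2 (0.74 and -1.12) and Mfap3 (0.61 and -0.94).

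Against capillary cells with early-response UMIs, Tmem147 (0.67 running, -0.73 sedentary), Hnrnpa0 (0.80 running, -0.76 sedentary) and Rbm5 (0.82 sedentary, -1.05 running) again pointed opposite ways. Smad5, a BMP signal transducer, stood at 0.70 in the sedentary and -0.61 in the untreated library, and Zc3h7a at 0.72 in the running and -0.67 in the untreated library.

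Erythrocyte markers summed stood at 1.07 in the untreated and -2.99 in the running library against all other cells, and at 1.61 (sedentary) and -2.08 (running) against capillary cells with early-response UMIs. Cells in which these markers took over 10% of UMIs were then left out, an alternative chosen after seeing the data. Against all other cells the ratios became 2.18 (untreated), 0.32 (sedentary) and 0.02 (running). Against capillary cells with early-response UMIs they became 3.47, 0.31 and 0.10. The untreated ratio against these capillary cells had been 0.49 with all cells kept.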

How the results depend on the processing

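No paired analysis was possible because each group held 1 library. No alternative reversed the sign of a named gene or list median whose reported value was at least 1.5-fold. Smaller values, which include most list medians, were not checked for a change of sign. Of 1148 values of named genes 90 moved beyond their spread or interval, and of 1361 list medians 187.

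The shares of cells without early-response UMIs kept their order over the libraries, with running lowest, at 11.6% (untreated), 13.3% (sedentary) and 8.80% (running) when the early-response genes were read after thinning, 14.2%, 16.2% and 11.3% when 1 early-response UMI was allowed, and 13.7%, 14.1% and 8.91% within 1000 to 2000 UMIs.

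Counts of called genes depended most on the minimum of UMIs per gene. With 20 UMIs, 114 genes were higher and 478 lower against other cells, 55 and 152 against capillary cells with early-response UMIs, 499 and 519 in running against sedentary cells, and 920 and 902 in untreated against sedentary cells. With 300 UMIs these were 24 and 85, 8 and 35, 1 and 6, and 36 and 30. Without the untreated library, the counts were 116 and 294 against other cells and 35 and 100 against capillary cells with early-response UMIs. Within 1000 to 2000 UMIs, 15 genes were higher and 84 lower against other cells, 10 were higher against capillary cells with early-response UMIs and 10 were higher in running cells. Thinning gave 37 higher against other cells and 37 higher in running cells. With 1 early-response UMI allowed, 31 genes were higher against capillary cells with more, 37 were higher and 49 lower in running cells, and 256 were higher and 210 lower in untreated cells. With at least 20 capillary-marker UMIs, 5 genes were higher against capillary cells with early-response UMIs. The other count values stayed within 1.5 times. A like count need not hold the same genes: after thinning, 8 of 16 genes higher against capillary cells with early-response UMIs, 27 of 56 higher against other cells and 7 of 17 higher in running cells were called again. The cause of these shifts was not tested, apart from the fewer genes measured under a higher minimum.

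Of the 12 genes named as higher against capillary cells with early-response UMIs, 5 (Commd3, Psmb9, Vbp1, Dnajc8 and Tspo) were no longer called after thinning and 7 (Commd3, Atp6ap1, Prdx1, Mfge8, Dnajc8, Anxa5 and Tspo) at 20 capillary-marker UMIs. All 12 named as lower stayed called in each setting where they had enough UMIs. In running against sedentary cells, Mef2c, Fscn1, Prex2, Iigp1, Epas1 and Tmed10 lost their call after thinning, Mef2c, Dhrs3, Fscn1, Prex2, Polr2i, Epas1, Tmed10 and Rras with 1 early-response UMI allowed, and H1f0, Dhrs3 and Prex2 within 1000 to 2000 UMIs. Against other cells, Plvap, Car8 and Hrct1 lost their call within 1000 to 2000 UMIs and Slc1a1 with 1 early-response UMI allowed. Each further setting that ended a call of a named gene with enough UMIs ended 1 to 3 of them per comparison and direction. Depth limits all of this: 1 UMI was worth 2.01, 2.62 and 4.93 CPM in the untreated, sedentary and running cells, and 3 UMIs 6.03, 7.87 and 14.8.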
